A study of Mus musculus with 20 samples.

Results

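Etv1, Etv4 and Etv5 form the PEA3 group of ETS transcription factors, and they were followed here through every probe set that the gene table of the array assigns to them alone. They are 3 of the 17097 genes named singly in that table, with 5 such probe sets among the 45037 on the array: 3 for Etv1, 1 for Etv4 and 1 for Etv5. The 20 mouse arrays fall into 4 groups of total RNA, with 1 sample on each array. CDS (n = 6) are individual CIC-DUX4 sarcomas that grew under the skin of Balb/c nude mice after embryonic mesenchymal cells (eMC) carrying the CIC-DUX4 fusion had been transplanted. ES (n = 6) are mouse tumors labelled Ewing sarcoma, also grown under the skin of Balb/c nude mice, for which the labels name neither a driver nor a cell of origin. eMC CIC-DUX4 (n = 4) are cultured eMC collected 48 hours after spinofection with the pMYs-CIC-DUX4-IRES-GFP retrovirus. eMC empty (n = 4) are the same kind of primary cells 48 hours after transduction with pMYs-IRES-GFP, in the same serum-containing Iscove's medium. All tumors had gone without treatment, and nude mice lack most T cells. Whether the arrays of 1 culture group stem from separate cultures is not stated, and their p-values then reflect only how far these samples spread, which may be technical.

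PEA3 factors are transcriptional activators that respond to receptor tyrosine kinases. In the embryo, fibroblast growth factors (FGFs) switch on their genes through the RAS and ERK kinases, and the DNA-binding repressor Capicua (Cic) keeps the same genes low when ERK is inactive. In human CIC-DUX4 sarcoma the fusion joins most of CIC, with its DNA-binding domain, to the activating end of DUX4, and nuclear ETV4 staining is used in diagnosis of that tumor. Rare human Ewing sarcomas carry fusions of EWSR1 with ETV1 or ETV4. The PEA3 proteins themselves are short-lived, since the COP1 and DET1 ubiquitin ligase marks them for destruction.

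Etv1 lies on chromosome 12 (chr12:38780082-38870483), Etv4 on chromosome 11 (chr11:101769747-101785310) and Etv5 on chromosome 16 (chr16:22381313-22439570), all in GRCm38.p6. RefSeq promoter windows of that build, from 250 bases before to 50 bases after a transcript start, were held for Etv1 (2 windows) and Etv5 (2 windows). A window at the annotated start of each gene and the other Etv5 window are shown. They were chosen because a probe set of each gene rose in cultured cells and because CIC reads the octamers TGAATGAA, TGAATGGA, TCAATGAA and TCAATGGA. None of the 4 octamers stood on either strand of the 4 windows, while 3.84% of the 32851 mouse windows in the table held at least 1. The cyclic AMP response element TGACGTCA (1.79% of all windows) and the ETS site CCGGAAGT (3.89%) had 0 matches as well. TGAATGG, the first 7 letters of TGAATGGA, was searched after the windows had been read. It occurred 3 times in the Etv5 window chr16:22438319-22438618 (minus strand), whose transcript start lies inside the annotated gene. At least 1 TGAATGG stood in 3.59% of all windows. The Etv5 window at the annotated start, chr16:22439521-22439820 (minus strand), had 0, as had both Etv1 windows, chr12:38779832-38780131 and chr12:38783461-38783760 (plus strand). Since the letters were chosen on the Etv5 window inside the gene, their number there supports nothing, and a match is a run of letters and not a bound site. Capitals below mark TGAATGG, or CCATTCA where it is on the opposite strand, at -242, -198 and -130 from the transcript start.
Etv5 promoter window inside the gene: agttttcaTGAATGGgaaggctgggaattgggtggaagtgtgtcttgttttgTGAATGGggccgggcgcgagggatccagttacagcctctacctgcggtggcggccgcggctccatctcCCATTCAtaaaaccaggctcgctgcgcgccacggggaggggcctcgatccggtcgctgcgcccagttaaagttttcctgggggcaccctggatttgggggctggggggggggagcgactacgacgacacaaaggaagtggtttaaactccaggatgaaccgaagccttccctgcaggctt
Etv5 promoter window at the annotated start: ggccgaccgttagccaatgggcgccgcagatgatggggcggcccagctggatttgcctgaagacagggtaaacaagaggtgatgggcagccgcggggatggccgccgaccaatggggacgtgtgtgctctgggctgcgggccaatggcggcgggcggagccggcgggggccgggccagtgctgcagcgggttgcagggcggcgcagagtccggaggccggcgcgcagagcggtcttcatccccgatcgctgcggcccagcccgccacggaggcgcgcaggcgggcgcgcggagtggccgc
Etv1 promoter window at the annotated start: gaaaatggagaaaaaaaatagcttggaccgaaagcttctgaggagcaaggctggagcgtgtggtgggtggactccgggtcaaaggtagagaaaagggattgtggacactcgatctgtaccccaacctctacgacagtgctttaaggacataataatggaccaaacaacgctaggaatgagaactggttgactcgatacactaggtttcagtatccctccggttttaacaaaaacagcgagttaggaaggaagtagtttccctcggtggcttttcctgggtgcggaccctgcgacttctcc

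Signals are given as log2 of the deposited linear signal plus an offset of 1.42, and each gene's lead probe set is the one with the highest mean over the 20 arrays. The deposited arrays share a trimmed mean (500.1 to 500.3 with 2% trimmed at each end) and differ in shape. The 75th percentile of the deposited log2 signals was 4.83 to 8.92 in CDS, 7.52 to 8.65 in ES, 8.53 to 8.94 in eMC CIC-DUX4 and 4.10 to 6.97 in eMC empty. Every fold change is therefore given as deposited and after quantile normalization, which makes the arrays' distributions equal. The percentile of a probe set among the 45037 of its own array is given as well, since it does not depend on the scaling. Most arrays had a dim and a bright part of their distribution with a dip of low density between them, and a signal below the dip is read as dim. The dip lay between 3.36 (eMC CIC-DUX4 5, with 70.9% of probe sets above it) and 8.19 (eMC empty 5, with 11.1% above it). Dim is therefore relative to the array, and a probe set of similar rank can be dim on 1 array and not on another. No dip was found on eMC CIC-DUX4 6. In 3 arrays (CDS 2 and the arrays 5 and 6 of eMC CIC-DUX4) the median log2 signal exceeded 5, and counts are also given without them.

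Etv1 (1422607_PM_at) was bright in all CDS tumors, intermediate in ES tumors and eMC CIC-DUX4, and dim in eMC empty. Its log2 signal in CDS 1 to 6 was 14.74, 14.62, 14.82, 14.06, 15.95 and 14.62. In the 6 ES tumors it was 7.97 at the lowest (ES 49), 8.81 at the median and 10.89 at the highest (ES 51). The CDS and ES values did not overlap, and the ES tumors spread over a wider range than the CDS tumors. In eMC CIC-DUX4 5 to 8 the signal was 9.0, 9.0, 8.7 and 8.7, against 4.0, 4.2, 3.4 and 3.3 in eMC empty 4 to 7. The 4 arrays with the fusion differed from each other by less than 1 log2 unit and lay above every empty-vector array. Group means were 14.80 ± 0.63 in CDS and 9.12 ± 1.13 in ES (SD, n = 6 each). Cultured cells averaged 8.85 ± 0.17 with the fusion and 3.73 ± 0.44 with the empty vector (SD, n = 4 each). The ranges of ES and eMC CIC-DUX4 overlapped, so those neighbours in the order did not differ beyond their spread. All 4 eMC empty values lay below their arrays' dip, at percentiles 64.3 to 68.7.

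Etv5 (1428142_PM_at) was also highest in CDS and lowest in eMC empty, with ES and eMC CIC-DUX4 between them at nearly the same mean. The log2 signal was 14.71, 14.45, 14.66, 14.03, 15.90 and 15.26 in CDS 1 to 6. It was 10.73, 8.84, 11.86, 10.73, 10.54 and 10.49 in ES 41, 46, 47, 48, 49 and 51. Again no ES tumor reached the lowest CDS tumor, and ES 46 was the lowest of the tumors. In eMC CIC-DUX4 5 to 8 the signal was 10.59, 10.35, 10.74 and 10.78, against 4.66, 4.90, 4.23 and 7.37 in eMC empty 4 to 7. The highest empty-vector array, eMC empty 7, was still below all 4 arrays with the fusion, and it was the only 1 of the 4 above its dip. Its 75th percentile over all probe sets was also the highest of that group, 6.97 against at most 4.74, and the percentile of Etv5 on that array, 75.8, lay inside the range of the group (75.2 to 76.2). Group means were 14.84 ± 0.66 in CDS, 10.53 ± 0.97 in ES (SD, n = 6 each) and 10.62 ± 0.20 in eMC CIC-DUX4, against 5.29 ± 1.41 in eMC empty (SD, n = 4 each). ES and eMC CIC-DUX4 overlapped for Etv5 too.

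Etv4 (1443381_PM_at) was bright in all CDS tumors and dim on nearly all other arrays. Its log2 signal there was 12.69, 13.24, 12.89, 12.26, 14.15 and 12.63 in CDS 1 to 6, above the dip on all 6 arrays. In ES 41, 46, 47, 48, 49 and 51 it was 2.73, 3.54, 6.99, 2.66, 2.44 and 4.42, and ES 47 was the only ES tumor above its dip. The cultured cells were dim in both groups, with 1.56, 6.06, 1.64 and 1.69 in eMC CIC-DUX4 5 to 8 and 2.07, 2.64, 1.79 and 1.79 in eMC empty 4 to 7. The high value of eMC CIC-DUX4 6 came from the array with no dip and a median log2 signal of 7.03, where Etv4 stood at percentile 23.8. Group means were 12.98 ± 0.66 in CDS, 3.80 ± 1.73 in ES (SD, n = 6 each) and 2.74 ± 2.21 in eMC CIC-DUX4, against 2.07 ± 0.40 in eMC empty (SD, n = 4 each). ES, eMC CIC-DUX4 and eMC empty overlapped in signal. Etv4 exceeded the array median in 9 of 20 arrays (the 6 CDS tumors and ES 46, 47 and 51), so it entered the tests mainly through the group where it is bright.

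**Figure D1:**
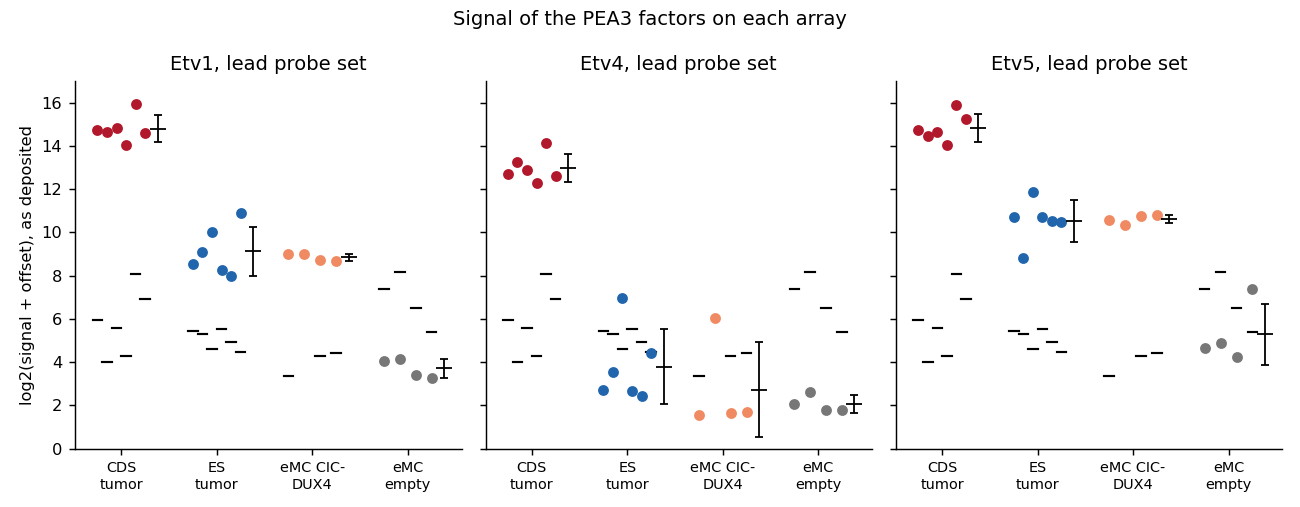
Log2 signal (linear signal plus the offset, as deposited) of the lead probe sets of Etv1, Etv4 and Etv5 on each array, with 1 point per array, the group mean with its SD beside the points, and a short black line at each array's dip. The CDS tumors stand above every other array in all 3 panels, and ES 47 is the only array outside CDS with Etv4 above its dip.

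Within each array the ranks gave the same picture for Etv1 and Etv5, and for Etv4 as far as CDS was concerned. Etv1 averaged percentile 99.5 ± 0.130 in CDS and 80.1 ± 5.95 in ES (SD, n = 6 each) and 75.6 ± 0.171 in eMC CIC-DUX4, against 66.4 ± 1.94 in eMC empty (SD, n = 4 each). Etv5 averaged 99.5 ± 0.107 in CDS, 87.8 ± 5.34 in ES and 88.8 ± 0.705 in eMC CIC-DUX4, against 75.8 ± 0.427 in eMC empty. Both genes thus ranked among the brightest probe sets of each CDS tumor. Etv4 averaged 97.1 ± 1.02 in CDS, 55.5 ± 9.40 in ES and 18.6 ± 4.13 in eMC CIC-DUX4, against 13.4 ± 7.73 in eMC empty. By rank, all ES tumors (45.7 to 65.9) lay above all cultured cells (at most 24.7) for Etv4, which the signals did not show. Of 15 exact two-sided permutation tests of percentiles (3 genes in 5 comparisons), 14 gave the smallest p the group sizes allow. These were 0.00216 for 6 against 6 arrays (adjusted p = 0.0108), 0.00952 for 6 against 4 (adjusted p = 0.0119) and 0.0286 for 4 against 4 (adjusted p = 0.0306), adjusted by Benjamini-Hochberg over the 15. The other was Etv4 in eMC CIC-DUX4 against eMC empty, with an exact permutation p of 0.314.

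**Figure D2:**
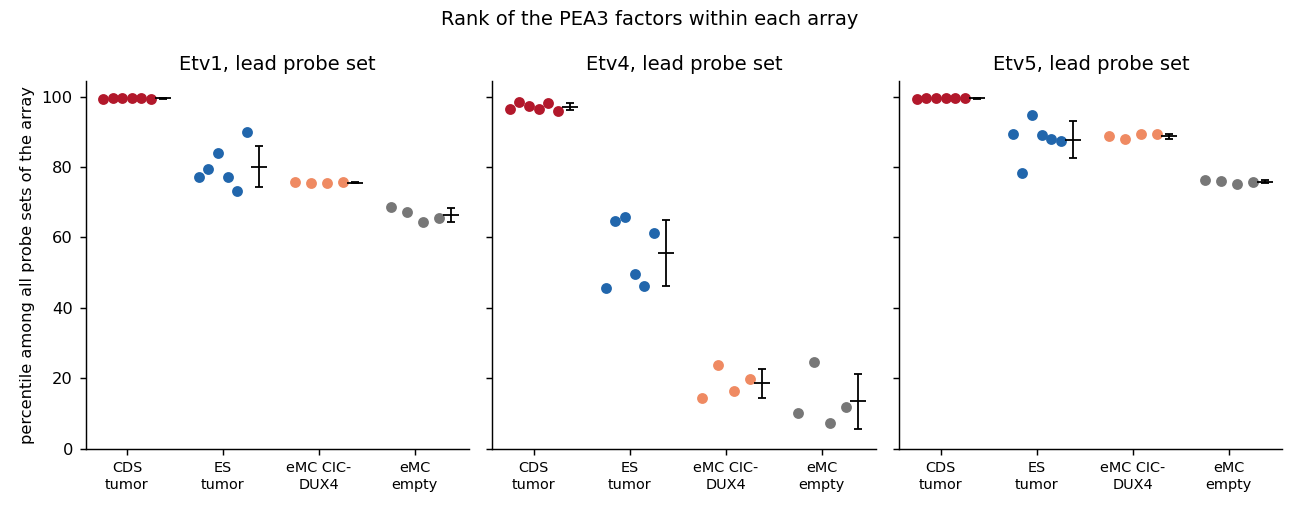
Percentile of each lead probe set among all 45037 probe sets of its own array, with 1 point per array and the group mean with its SD. Etv1 and Etv5 lie between 99.3 and 99.7 in the CDS tumors, and Etv4 between 96.0 and 98.5.

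The first comparison asks what changed 48 hours after the fusion entered cultured cells. On the lead probe sets, Etv1 and Etv5 rose in eMC CIC-DUX4 and Etv4 did not pass the test. A call means a Benjamini-Hochberg adjusted p under 0.05 over all 26897 probe sets tested, with a log2 fold change of at least 1 in size, in limma's moderated test on the 2 groups. Etv1 was higher by 5.12 ± 0.38 log2 units (SE, adjusted p = 1.58e-05) as deposited and by 2.00 ± 0.19 (adjusted p = 3.49e-06) after quantile normalization. Since Etv1 was dim on all empty-vector arrays, the difference was at least 3.97-fold in the deposited signals, a bound that does not take out the median shift given below. The other Etv1 probe sets were not called on both scales. On 1450684_PM_at the difference was 3.94 as deposited (called) and 0.86 after quantile normalization (not called). On 1445314_PM_at it was 0.54 (adjusted p = 0.741) and 0.12, called on neither scale, so the Etv1 call on both scales rests on its lead probe set. Etv5 was higher by 5.32 ± 0.65 (adjusted p = 0.000101) as deposited and by 2.87 ± 0.12 (adjusted p = 3.71e-09) after quantile normalization. Over all probe sets the median fold change of this comparison was 1.98 log2 units as deposited and -0.01 after quantile normalization, so Etv1 stood 3.14 and Etv5 3.35 above the deposited median. For Etv4 the difference was 0.66 ± 1.43 (adjusted p = 0.676, 95% interval -2.54 to 3.87) as deposited and 0.15 (95% interval -0.11 to 0.41) after quantile normalization. The deposited difference of Etv4 turned to -0.44 without eMC CIC-DUX4 6, to -0.41 without the 3 arrays of high median and to -0.89 after scaling the arrays to a common median, and it passed under none of these.

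Of the 3 lead probe sets, 2 were called higher on both scales, as were 7.75% of the 12330 genes tested, while 0.381% of genes were called lower on both. Ordered by fold change, Etv1 was gene 103 as deposited and gene 155 after quantile normalization, and Etv5 was gene 65 and gene 41. The count of 2 was the same without the 3 arrays of high median. Scaling each array to the same median, with array medians of 1.85 to 7.03 in eMC CIC-DUX4 and 2.21 to 3.05 in eMC empty, widened the spread and ended both calls, at 3.56 for Etv1 (adjusted p = 0.162) and 3.77 for Etv5 (adjusted p = 0.168). Under that scaling 0 of all probe sets were called by limma, with 6770 at an unadjusted p under 0.05.

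Set against the empty-vector cells, the tumors carrying the fusion were higher for all 3 factors. Etv1 differed by 11.07 ± 0.52 log2 units as deposited (SE, limma adjusted p = 6.79e-12) and 9.15 ± 0.18 after quantile normalization, a difference of at least 246-fold in the deposited signals. Etv4 differed by 10.90 ± 0.70 (adjusted p = 6.95e-10) and by 10.78 ± 0.28, at least 69.4-fold. Etv5 differed by 9.55 ± 0.57 (adjusted p = 2.54e-10) and by 7.13 ± 0.12, with no bound because eMC empty 7 was above its dip. The median over all probe sets was 0.89 as deposited and -0.07 after quantile normalization. All 3 lead probe sets were called higher on both scales, against 12.8% of genes called higher and 4.25% called lower. In the order of fold changes over 12330 genes Etv1, Etv4 and Etv5 were genes 8, 9 and 22 as deposited and genes 16, 7 and 59 after quantile normalization.

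Between the tumor types, all 3 factors were higher in CDS than in ES, and no CDS value overlapped an ES value. Etv4 had the widest difference, 9.18 ± 0.75 log2 units as deposited (SE, limma adjusted p = 4.80e-08) and 8.78 ± 0.43 after quantile normalization. For Etv1 it was 5.68 ± 0.44 (adjusted p = 2.11e-08) and 6.17 ± 0.48. For Etv5 it was 4.30 ± 0.39 (adjusted p = 2.01e-07) and 4.46 ± 0.46. Here the scales nearly coincide, since the median over all probe sets was 0.21 as deposited and -0.03 after quantile normalization. The 3 of 3 called higher compare with 9.36% of genes called higher and 9.72% called lower. By fold change Etv4 was gene 28 of 12330 as deposited and 25 after quantile normalization, Etv1 gene 140 and 101, and Etv5 gene 286 and 235. In bulk tumor RNA, fewer cells of a type and less RNA per cell cannot be told apart.

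The tumors were also higher than cultured cells that already carried the fusion. Etv4, still dim at 48 hours, was higher in CDS than in eMC CIC-DUX4 by 10.24 ± 0.83 log2 units as deposited (SE, limma adjusted p = 1.31e-06) and by 10.63 ± 0.27 after quantile normalization. Since it was below the dip on the 3 eMC CIC-DUX4 arrays that have one, the size rests on dim signals, and against those 3 arrays it was at least 493-fold in the deposited signals. Etv1 was higher by 5.95 ± 0.31 (adjusted p = 3.41e-08) and 7.15 ± 0.12. Etv5 was higher by 4.22 ± 0.30 (adjusted p = 2.96e-07) and 4.26 ± 0.12. These differences run opposite to the deposited median over all probe sets, -0.94, which is -0.01 after quantile normalization. All 3 were called higher on both scales, beside 4.01% of genes called higher and 12.7% called lower. Among 12330 genes ordered by fold change Etv4 was gene 4 as deposited and 5 after quantile normalization, Etv1 gene 41 and 43, and Etv5 gene 121 and 246. Time since transduction and growth in a mouse differ together between these groups and cannot be told apart.

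On the lead probe sets, ES tumors, which have no labelled fusion of Cic, also had more Etv1 and Etv5 signal than eMC empty. Etv1 was higher by 5.39 ± 0.71 log2 units as deposited (SE, limma adjusted p = 8.54e-05), at least 4.80-fold, and by 2.98 ± 0.62 after quantile normalization. Etv5 was higher by 5.24 ± 0.70 (adjusted p = 9.12e-05) and 2.67 ± 0.58. The median over all probe sets was 0.41 as deposited and -0.02 after quantile normalization. For Etv4 the call depended on the scale, with 1.72 ± 0.75 (adjusted p = 0.0750) as deposited and 2.00 ± 0.45 (adjusted p = 0.00323) after quantile normalization. Without ES 47 the deposited difference of Etv4 was 1.08 (adjusted p = 0.0390), which passed. So 2 of 3 were called higher on both scales, beside 14.6% of genes called higher and 8.29% called lower. In the order of fold changes Etv1, Etv5 and Etv4 were genes 399, 452 and 4430 as deposited and genes 563, 695 and 1106 after quantile normalization. The other Etv1 probe sets were not called on both scales in this comparison. They differed by 2.78 (adjusted p = 0.0594) as deposited and 2.15 (adjusted p = 0.0191, called) after quantile normalization on 1450684_PM_at, and by -0.30 and -0.04 on 1445314_PM_at. The probe sets shared by Etv5 and Scpep1, given below, were called on neither scale here, so the Etv5 result rests on its lead probe set. The comparisons with eMC empty share its 4 arrays, and those of the tumors share the CDS arrays, so their values are given side by side and not as independent results.

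**Figure D3:**
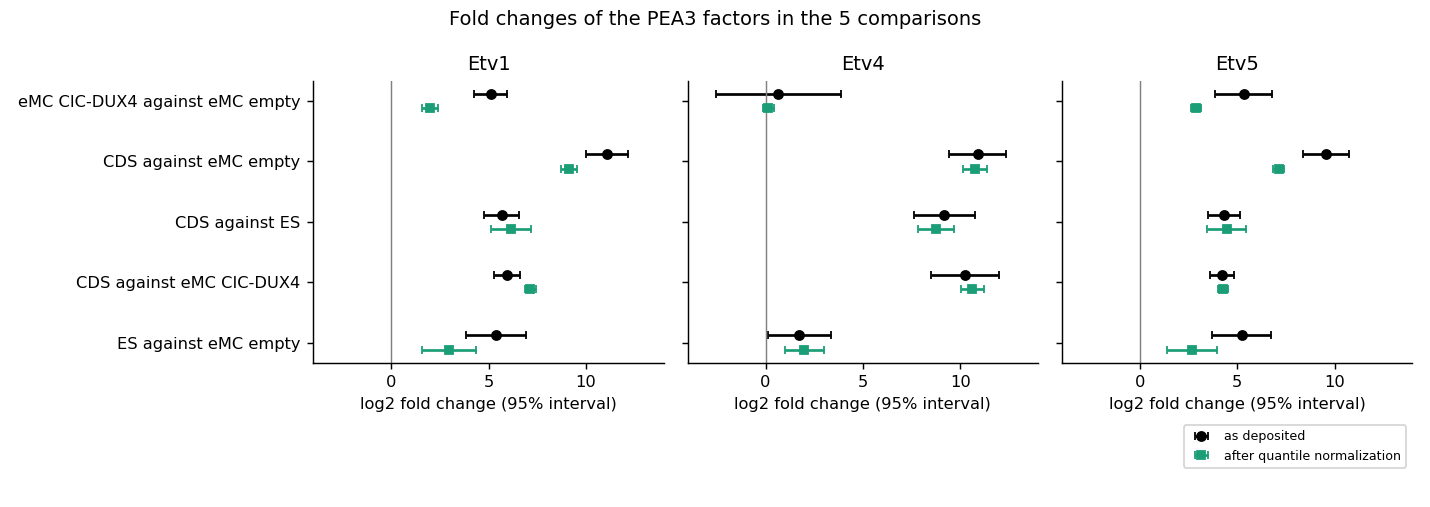
Log2 fold change of the 3 lead probe sets in the 5 comparisons with 95% intervals from limma, as deposited (black circles) and after quantile normalization (green squares). Intervals of Etv4 include 0 for eMC CIC-DUX4 against eMC empty, and all other deposited values lie above 0.

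The other probe sets of Etv1 differed in how far they reached. On 1450684_PM_at, which the table assigns through the same transcript record as the lead set, the signal averaged 14.25 ± 0.75 in CDS, 6.06 ± 2.31 in ES (SD, n = 6 each) and 7.22 ± 0.69 in eMC CIC-DUX4, against 3.28 ± 0.56 in eMC empty (SD, n = 4 each). In ES 47 and ES 51 it was 8.22 and 9.74, and in the other ES tumors it was 4.46 to 4.69, below their dips. It was called higher in CDS on both scales in all 3 comparisons of CDS, by 10.97 against eMC empty, 8.20 against ES and 7.03 against eMC CIC-DUX4 as deposited. Set against eMC empty, eMC CIC-DUX4 had more of it by 3.94 ± 0.50 (limma adjusted p = 0.000123) as deposited and by 0.86 ± 0.29 after quantile normalization, under the fold needed for a call.

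The third Etv1 probe set, 1445314_PM_at, was dim almost everywhere. Only CDS 2 (9.06) and CDS 4 (7.74) lay above their dip, and the other CDS tumors had 4.04 to 5.28. The ES tumors had 1.38 to 1.68, eMC empty 1.52 to 2.13, and eMC CIC-DUX4 5.11 on array 6 and 1.52 to 1.55 on the others. It was higher in CDS than in eMC empty by 3.98 ± 0.97 (SE, limma adjusted p = 0.00666) as deposited and by 4.22 ± 0.46 after quantile normalization. Against ES the difference was 4.28 ± 0.77 (adjusted p = 0.000650) and 4.26 ± 0.39. Against eMC CIC-DUX4 it was 3.43 ± 1.18 (adjusted p = 0.0552) as deposited, not called, and 4.10 ± 0.46 after quantile normalization. It exceeded the array median in 6 of 20 arrays, the CDS tumors, so it was tested only through its bright group. Its p-values are therefore not independent support for a difference of CDS.

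A pair of further probe sets is assigned to both Etv5 and Scpep1, a carboxypeptidase gene, and was left out of the 5. They were higher in CDS than in eMC empty, as was the lead set of Etv5, while those of Scpep1 alone were lower. On 1450082_PM_s_at the signal averaged 12.35 ± 0.23 in CDS, 5.37 ± 2.21 in ES and 7.52 ± 0.90 in eMC CIC-DUX4, against 3.21 ± 0.19 in eMC empty. On 1420998_PM_at it averaged 9.78 ± 1.75 in CDS, 3.23 ± 1.49 in ES and 4.78 ± 2.54 in eMC CIC-DUX4, against 2.90 ± 0.25 in eMC empty. Both were called higher in CDS than in eMC empty on both scales, by 9.14 and 6.88 as deposited. The probe sets of Scpep1 alone were called lower there on both scales, 1455908_PM_a_at by -1.80 and 1426555_PM_at by -4.32 as deposited. In CDS against ES neither of them was called on both scales, with -0.10 (limma adjusted p = 0.789) and -2.02 (adjusted p = 0.0787) as deposited. Against eMC CIC-DUX4, 1426555_PM_at was called lower on both scales (-4.48 as deposited), and 1455908_PM_a_at was not (-0.73, adjusted p = 0.0740). At 48 hours with the fusion, against eMC empty, 1450082_PM_s_at was called higher on both scales (4.30 as deposited and 1.47 after quantile normalization), and 1420998_PM_at was not called (1.88, adjusted p = 0.189). In ES against eMC empty, where the lead set of Etv5 was called, neither shared set was called on either scale, with 2.16 (adjusted p = 0.104) and 0.33 (adjusted p = 0.687) as deposited.

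**Figure D4:**
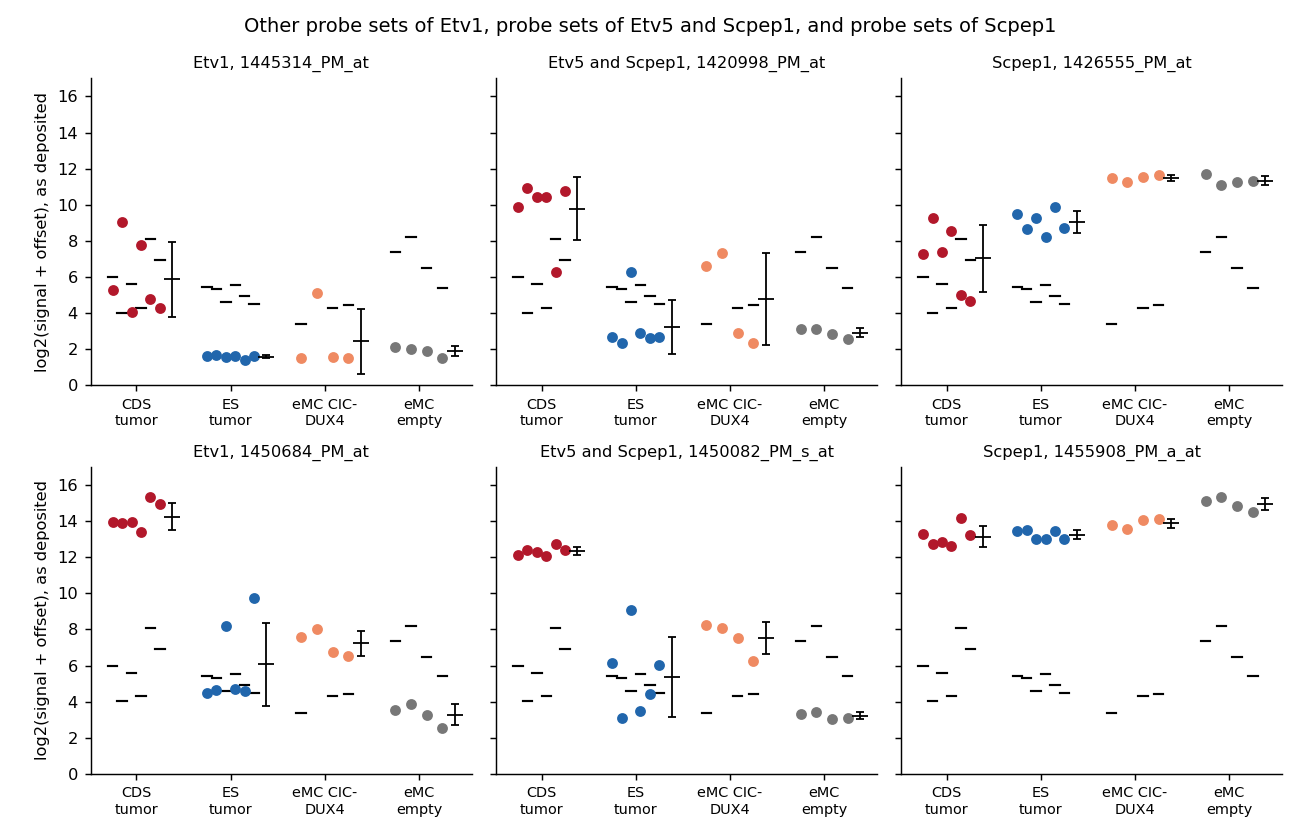
Log2 signal on each array, as deposited, of the other Etv1 probe sets (left), the probe sets shared by Etv5 and Scpep1 (middle) and those of Scpep1 alone (right), with group means, SD and each array's dip as a short black line. The shared probe sets are highest in CDS, where those of Scpep1 alone are lower than in eMC empty.

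Cic, the repressor that supplies the DNA-binding part of the fusion, and its partners Atxn1 and Atxn1l came next in the pathway. No probe set of the table belongs to the fusion itself. The probe set of mouse Cic (1415746_PM_at) was higher in eMC CIC-DUX4 than in eMC empty by 3.84 ± 0.63 log2 units as deposited (limma adjusted p = 0.000624) and by 0.35 ± 0.13 after quantile normalization, so it was not called on both scales. It was called on both in CDS against eMC empty, by 3.53 as deposited and 1.24 after quantile normalization. Atxn1 and Atxn1l were called on both scales in 0 of the 5 comparisons.

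Genes that CIC is reported to control, other than the PEA3 factors, were mostly higher in CDS tumors, and at 48 hours most were not called on both scales. Of 20 listed, 17 were tested. In eMC CIC-DUX4 against eMC empty 1 of 17 was called higher on both scales and 0 lower, beside 7.75% and 0.381% of all genes. As deposited 9 of 17 were called higher and 0 lower, beside 46.4% and 4.62% of all genes. After quantile normalization 1 was called higher and 1, Fosl1 (-1.01), lower, beside 8.13% and 4.82%. The gene called higher on both scales was Vgf, a secreted neuropeptide precursor, with 7.75 ± 0.36 as deposited and 7.09 ± 0.21 after quantile normalization, at least 13.8-fold. The median over the 17 was 2.21 as deposited and 0.24 after quantile normalization, beside 2.08 and 0.01 over all genes. In CDS against eMC empty 14 rose and 1 fell, beside 12.8% and 4.25% of all genes, with a median of 3.51 and 3.34 beside 0.89 and -0.10 over all genes. Vgf was higher by 12.77 as deposited, Spred3 by 8.30, Dusp4 by 7.47 and Spry4 by 7.44. Spred3 and Spry4 encode inhibitors of RAS signalling, and Dusp4 encodes a phosphatase of the ERK family. The 1 that fell was the immediate-early gene Egr1 (-3.70 as deposited and -3.00 after quantile normalization).

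Between tumor types, 14 of these 17 genes rose in CDS against ES and 3 fell, beside 9.36% and 9.72% of all genes, with a median of 2.42 as deposited and 2.89 after quantile normalization beside 0.02 and -0.03 over all genes. The cyclin gene Ccnd2 was higher by 6.26 as deposited and Fosl1, an AP-1 subunit, by 5.14. The 3 that fell were Egr1 (-3.15), Bcl2l11 (-1.32), which encodes a cell death protein, and Myc (-1.05). Against eMC CIC-DUX4, 10 rose in CDS and 1, Egr1 again, fell (-2.95), beside 4.01% and 12.7% of all genes. Dusp6, an ERK phosphatase, was among the 10 with 3.89 ± 0.29 as deposited (limma adjusted p = 4.81e-07). In ES against eMC empty 6 rose and 3 fell, beside 14.6% and 8.29% of all genes, with Dusp4 (5.06), Bcl2l11 (4.83) and Dusp6 (4.75) higher and Ccnd2 (-4.38), Fosl1 (-1.72) and Spry2 (-1.61) lower. Without the 3 arrays of high median the counts were the same, except that 0 fell in CDS against eMC CIC-DUX4. Genes named to complete a count of 5 or fewer were chosen after their values were seen.

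Upstream of the factors, FGF and ERK pathway genes showed no common direction, with 15 of 24 tested. In eMC CIC-DUX4 against eMC empty 3 of 15 rose and 0 fell, where 7.75% and 0.381% of all genes did, namely the receptor genes Fgfr3 (4.77 as deposited and 1.60 after quantile normalization), Kit (4.67 and 1.74) and Met (3.25 and 1.14). Of the list, 2 were called higher without the 3 arrays of high median. The median of the 15 was 1.44 as deposited and -0.03 after quantile normalization, beside 2.08 and 0.01 over all genes. In CDS against eMC empty 3 rose, Kit (5.80), Fgfr1 (1.53) and Nras (1.53), and 3 fell, where 12.8% and 4.25% of all genes did. Those were the ligand genes Fgf7 (-6.30) and Fgf10 (-1.08) and the receptor gene Egfr (-3.00). Against ES, Fgfr1 (2.17) and Ret (2.93) rose in CDS and 0 fell (all genes 9.36% and 9.72%). Against eMC CIC-DUX4, Nras rose (1.22) and 5 fell in CDS: Fgf7 (-7.09), Met (-5.98), Fgfr2 (-4.60), Fgf10 (-3.42) and Egfr (-3.17). Of all genes 4.01% rose and 12.7% fell there. Without the 3 arrays the counts of that comparison were 0 and 3. Fgf7 and Met were also lower in ES than in eMC empty, where 2 of the 15 rose and 4 fell (all genes 14.6% and 8.29%).

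Of 8 tested genes for turnover of PEA3 proteins, Trib2, whose protein belongs to a family that recruits COP1, was called in 4 of the 5 comparisons. It rose in eMC CIC-DUX4 against eMC empty (3.34 as deposited and 1.67 after quantile normalization) and in CDS against eMC empty (5.08 and 3.43), ES (2.65 and 3.26) and eMC CIC-DUX4 (1.74 and 1.75). Its relative Trib1 fell in CDS against ES (-3.29 and -2.17) and rose in ES against eMC empty (5.31 and 3.10). Usp9x, a deubiquitinase, rose in CDS (4.25 and 2.43) and in ES (4.03 and 1.79) against eMC empty. Called higher and lower were 1 and 0 of the 8 at 48 hours, 2 and 0 in CDS against eMC empty, 1 and 1 against ES, 1 and 0 against eMC CIC-DUX4 and 2 and 0 in ES against eMC empty, where the shares of all genes were those given above. The ligase genes Det1, Ddb1, Cul4a, Cul4b and Rbx1 were called on both scales in 0 of the 5 comparisons. The median of the 8 in CDS against eMC empty was 0.92 as deposited and 0.17 after quantile normalization, beside 0.89 and -0.10 over all genes.

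Genes reported elsewhere as PEA3 targets, 19 of 22 tested, were mixed. Dusp6 and Ccnd2 also stand on the CIC list, and Ret on the FGF list. In eMC CIC-DUX4 against eMC empty 1 rose, the transcription factor gene Sox9 (4.83 as deposited and 1.70 after quantile normalization), and 1 fell, the matrix protease gene Mmp3 (-1.60 and -1.20), beside 7.75% and 0.381% of all genes, with 2 and 2 called without the 3 arrays of high median. In CDS against eMC empty 6 rose and 2 fell, beside 12.8% and 4.25% of all genes, with the protease gene Mmp9 higher by 7.64 and Bcl6b by 4.92, and Mmp3 (-6.16) and the prostaglandin synthase gene Ptgs2 (-4.31) lower. The median over the 19 was 1.15 as deposited and -0.04 after quantile normalization, near the 0.89 and -0.10 of all genes. Against ES 9 rose in CDS, among them Twist1 (6.69), Icam1 (5.10) and Mmp13 (4.47), and Mmp3 fell (-3.89), beside 9.36% and 9.72% of all genes. Against eMC CIC-DUX4 5 rose, among them Dusp6 (3.89) and Bcl6b (3.67), and 4 fell: Ptgs2 (-4.86), Mmp3 (-4.56), Erbb2 (-3.34) and Snai1 (-3.14), beside 4.01% and 12.7% of all genes. Without the 3 arrays 5 rose and 1 fell. In ES against eMC empty 2 rose and 7 fell, beside 14.6% and 8.29% of all genes, with Twist1 at -4.99.

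Of 16 other ETS factors tested, 0 were called on both scales at 48 hours, beside 7.75% of all genes higher and 0.381% lower. As deposited 5 were called higher, beside 46.4% of all genes, and after quantile normalization 0. In CDS against eMC empty 6 rose and 0 fell, beside 12.8% and 4.25% of all genes. Fli1, active in blood and endothelial cells, was higher by 9.10 as deposited, and the epithelial factor Elf3 by 5.80. The median of the 16 was 1.36 as deposited and 0.72 after quantile normalization, beside 0.89 and -0.10 over all genes. The repressor genes Erf (4.38) and Etv6 (3.24) were also among the 6, with 4 called without the 3 arrays of high median. Against ES, Elf3 (5.90), Ets1 (3.67), Fli1 (3.60) and Elk3 (1.51) rose in CDS, and Elf3, Ets1 and Fli1 also rose against eMC CIC-DUX4, with 0 fallen in either (9.36% of all genes rose against ES and 4.01% against eMC CIC-DUX4). In ES against eMC empty Fli1 (5.50), Etv6 (4.46) and Elk4 (2.45) rose and 0 fell, beside 14.6% and 8.29% of all genes. At 48 hours, against eMC empty, the median of the 16 was 1.34 as deposited and 0.01 after quantile normalization, beside 2.08 and 0.01 over all genes. Etv1 and Etv5 stood at 2.00 and 2.87 on the second scale.

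**Figure D5:**
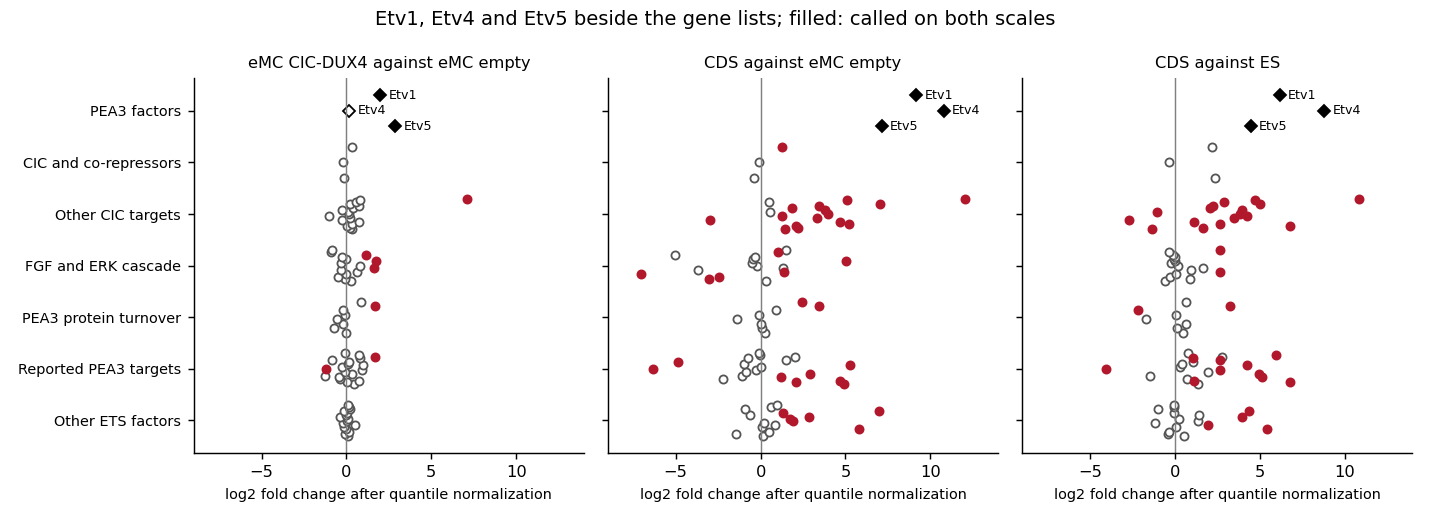
Log2 fold change after quantile normalization of Etv1, Etv4 and Etv5 (diamonds) and of the tested genes of each list (circles) in 3 comparisons, filled where called on both scales. Etv1 and Etv5 in the first panel, and all 3 factors in the second, lie above every listed gene except Vgf.

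Over the 20 arrays after quantile normalization the 3 factors followed each other, with Pearson's r of 0.97 for Etv1 and Etv4, 0.94 for Etv1 and Etv5 and 0.90 for Etv4 and Etv5. These arrays share 4 groups, so the values describe mainly the group differences. Of 11833 genes compared by the same measure, those most like Etv1 were Pkd1 (0.98), Cdc14a, Prex1, Spred2 and Spsb4 (0.97 each). Most like Etv4 were Notch4 (0.99), Per2, Prex1, Cracr2b and Clca2 (0.98 each). Most like Etv5 were Abhd17a and Cacna1h (0.95 each), Rhobtb2, Stxbp6 and Mmd2 (0.94 each). Over the 14 arrays without CDS the coefficients of these genes were between 0.66 and 0.86. Spred2 is the listed CIC target among them.

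Tissue markers and RNA quality differed between the groups as well. The difference between the 3′ and 5′ probe sets of Actb, in log2 units, was 0.80 ± 0.36 in CDS, 0.25 ± 0.05 in ES (SD, n = 6 each) and 0.22 ± 0.02 in eMC CIC-DUX4, against 0.17 ± 0.03 in eMC empty (SD, n = 4 each). The summed linear signal of 6 endothelial marker genes was 4412 to 8568 in CDS, 298 to 3179 in ES, 65.3 to 778 in eMC CIC-DUX4 and 25.9 to 43.3 in eMC empty, where all 6 were below the dip. In ES, Tek and Tie1 were below the dip on every array. In CDS, Tek was above it in 3 of 6 tumors, Tie1 in 1, and Pecam1, Kdr and Emcn in 5. The brightest of the 6 in CDS was Cdh5, with a log2 signal of 11.61 to 12.66, against 7.09 to 10.34 in ES. Kdr overlapped between the tumor types, with 5.80 to 9.84 in CDS and 7.03 to 9.60 in ES. The sum over 6 macrophage genes was 7426 to 15547 in CDS, 3968 to 19648 in ES, 7474 to 8656 in eMC CIC-DUX4 and 918 to 3996 in eMC empty. Skeletal muscle markers ranged from 502 to 204529 in CDS and from 8.62 to 138190 in ES, with 2215 to 2377 in eMC CIC-DUX4 and 4650 to 5806 in eMC empty. Between the cultures, the sums were 417 to 715 in eMC CIC-DUX4, against 28.5 to 41.4 in eMC empty, for 3 neural and Schwann cell markers. They were 2370 to 2631 with the fusion, against 779 to 1572 without it, for 4 keratinocyte markers, and 23405 to 31528 against 47053 to 83278 for 2 adipocyte markers. These sums use deposited signals, where the median fold change between the cultures was 1.98 log2 units. By within-array percentile, Sox10 (68.5 to 72.2 with the fusion, 64.8 to 71.5 without it) and S100b (68.3 to 69.7 and 69.4 to 72.1) overlapped. So did Tubb3, Krt5, Krt14 and Adipoq, while Trp63 was higher with the fusion (60.2 to 64.3 and 47.8 to 56.5). Fabp4 ranked slightly higher and Krt10 slightly lower with it. Of the macrophage genes, Csf1r (62.1 to 66.5 with the fusion, 65.3 to 67.7 without it) and Mrc1 (77.5 to 78.6 and 78.2 to 80.7) overlapped by percentile. Cd14 (86.8 to 87.3 and 77.6 to 80.4), Cd68, Tyrobp and Adgre1 ranked higher with the fusion. The 3 lymphocyte markers summed to at most 324 on any array. The part of these cells and of RNA quality in the levels of Etv1, Etv4 and Etv5 was not tested. Of 9 mesenchymal markers, 9 were above the dip on each eMC CIC-DUX4 array that had one, 4 to 8 in eMC empty, 4 to 9 in CDS and 5 to 7 in ES, where Col1a2 and Twist1 were below it on all 6 arrays. Col1a2 was also below it on all 4 eMC empty arrays, and above it in 1 of 6 CDS tumors. These counts depend on each array's dip, which lay at 3.36 to 4.45 in eMC CIC-DUX4 and at 5.40 to 8.19 in eMC empty. By percentile the cultures overlapped for Pdgfra (83.5 to 86.5 with the fusion, 82.9 to 85.3 without it), Pdgfrb, Col1a1, Col1a2 and Col3a1. Thy1 (92.7 to 93.1 and 87.5 to 88.3), Twist1 and Prrx1 ranked higher with the fusion, and Vim slightly lower. Of the 6 Ewing sarcoma markers on the array, Cav1 was above the dip in 6 of 6 ES tumors, Prkcb in 5 of 6, Nkx2-2 in 1 of 6, and Nr0b1, Kcnab3 and Dkk2 in 0 of 6. In CDS, Cav1 and Prkcb were above it in 6 and 5 of 6 tumors too, and the other 4 in 0. Among the cultures, Cav1, Prkcb and Dkk2 were above it on 3 of 3 eMC CIC-DUX4 arrays with a dip. In eMC empty, Cav1 was above it on 4 of 4 arrays and the other markers on 0.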

How the data were processed

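Total RNA of 20 samples was hybridised to Affymetrix mouse arrays. The log2 signals were deposited by the authors, and per the submitters' processing notes they come from MAS5, with version and settings not given in the sources used here. The 104 control probe sets of 45141 were dropped. The array's gene table gave 28898 of the remaining 45037 a single symbol, 551 several and 15588 none, and 28689 of the first kind matched a gene of RefSeq (GRCm38.p6) by Entrez number. Columns without a listed sample numbered 0, as did pairs of identical arrays. The number of arrays limits the precision.

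The log2 signals were returned to the linear scale, an offset of 1.42 (0.25 of the median of the array medians) was added, and log2 was taken. The 26897 probe sets above their array's median in at least 4 arrays were tested, covering 12330 genes by their lead probe set. In R 4.3.3 (files read with data.table, version 1.17.8), limma 3.58.1 fitted the 2 groups of each comparison by lmFit and eBayes, with the trend option, two-sided, with Benjamini-Hochberg adjustment. Dips were found on a density of bandwidth 0.35. Where every dim array lay below its dip, the bound compares the bright mean with the mean of the higher of dip and signal over the dim arrays. Percentiles were tested in Python 3.11.15 with SciPy 1.17.1 and drawn with matplotlib 3.10.9. The fit was tested on simulated data, drawn independently around 1 mean per probe set. Those data had no differences in distribution between arrays, so they do not test the effect of scaling.

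The genes named are all probe sets of Etv1, Etv4 and Etv5, Cic, up to 4 genes of each list with the largest fold change among those called one way on both scales, and the 5 genes most correlated with each factor, without predicted or clone-derived names. Members and lists were chosen with earlier results of these data known. The motif TGAATGG, the bound of Etv4 in CDS against eMC CIC-DUX4 and the counts of called factors and list genes without the 3 arrays of high median were chosen after seeing the data. The alternatives changed the offset, the filter, the scaling, the spread model or the summary of probe sets, or used all 4 groups in 1 fit, other probe sets to rank among, no arrays of high median, the replicate number as a block, or 1 array fewer in turn.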

Additional observations from a re-analysis of the deposited data

Results flagged for a closer look

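Of 40 sets of 4 to 6 arrays examined for the probe sets of Etv1, Etv4 and Etv5 (signal and percentile in each group), 5 held an array far from the others of its group, where chance gives about 1 in 20 for independent sets, which these are not, since they share probe sets and arrays. Etv4 on eMC CIC-DUX4 6 had a log2 signal of 6.06, with the others at 1.56 to 1.69. On the same array the Etv1 probe set 1445314_PM_at had 5.11, with the others at 1.52 to 1.55. That array's median log2 signal, 7.03, was the highest of its group. In ES 49 the probe set 1445314_PM_at had 1.38, with the others at 1.57 to 1.68, and in ES 51 it stood at percentile 15.1, with the others at 2.60 to 7.05, all below the dip. On eMC empty 7 the Etv1 probe set 1450684_PM_at stood at percentile 47.2, with the others at 60.7 to 62.6.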

How the results depend on the processing

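No fold change of Etv1, Etv4 or Etv5 that was called reversed under any alternative run, and every call of the CDS comparisons stayed. In eMC CIC-DUX4 against eMC empty, scaling each array to the same median ended the calls of Etv1 (3.56) and Etv5 (3.77). There Etv4, not called at 0.66, turned to -0.89 (adjusted p = 0.421) under that scaling, to -0.41 (adjusted p = 0.227) without the 3 arrays of high median and to -0.44 (adjusted p = 0.464) without eMC CIC-DUX4 6. Etv4 in ES against eMC empty passed after quantile normalization (2.00) and without ES 47 (1.08), and leaving out each array in turn gave 1.08 to 1.99. It had no value under the filter of 10 arrays. The called probe sets moved with the scaling, and the cause was not tested. In eMC CIC-DUX4 against eMC empty they numbered 12785 as deposited (11661 higher, 1124 lower), 3643 after quantile normalization (1999 and 1644) and 0 at the same median. In CDS against eMC empty they numbered 4863 (3549 and 1314), 10254 (4902 and 5352) and 1780, with 2774 to 6103 as each array was left out (2774, 2900 and 3199 without eMC empty 4, 5 and 6). In CDS against ES they numbered 5338, 8291 after quantile normalization, and 3550 to 6184 as each array was left out (3550 without ES 51). In CDS against eMC CIC-DUX4 they numbered 4456 (1201 and 3255), 9713 (4602 and 5111) and 1380, and 1902 without the 3 arrays of high median. There, leaving out each array gave 2097 to 7219 (7219 without CDS 2, and 2097, 2279 and 2530 without eMC CIC-DUX4 5, 6 and 7). In ES against eMC empty the split was 6950 higher and 2629 lower as deposited, and 4841 and 5103 after quantile normalization. The mean over all probe sets of a gene tests genes, so its count was not set beside these. Percentile differences kept their direction in all 180 alternatives, and 21 no longer passed, each with fewer arrays. Among them were Etv1 and Etv5 in eMC CIC-DUX4 against eMC empty, in all 8 runs with 1 array left out (permutation test, adjusted p = 0.0571 to 0.0612). With 1 array fewer there, the exact two-sided test cannot reach p under 0.05, so these losses were set by the group sizes.

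Replicate numbers were shared by some arrays only. With the number as a block, no call of the 3 factors changed, and CDS against eMC CIC-DUX4 had 16696 called probe sets. Whether the numbers pair the samples was not settled. In eMC CIC-DUX4 against eMC empty the deviations of same-numbered arrays correlated at 0.41, -0.18 and 0.41 as deposited. After quantile normalization they correlated at 0.012, -0.0015 and 0.00027.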
